A study of Mus musculus with 12 samples.

Results

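Cortical astrocytes that had lost the glucocorticoid receptor were compared with astrocytes that kept it, in mouse pups that had all been separated from the dam. The comparison sets 3 libraries labelled AGR cKO ESD against 3 labelled Cre- ESD, 6 of the 12 libraries of the series. It takes in all 45777 genes of the deposited table, of which 19163 had enough counts to be tested. Every animal is Nr3c1 flox/flox: recombination sites flank part of the gene that encodes the receptor. AGR cKO animals also carry Aldh1l1-CreERT2, a recombinase that needs a tamoxifen compound to act and that is driven from the gene of an astrocyte folate enzyme. Animals of both groups received 4-hydroxytamoxifen (4-OHT) from postnatal day 5 to 7. ESD pups spent 3 hours a day without the dam from day 1 to day 14, so separation began before the recombinase was activated. Astrocytes were taken from the cortex on day 14, by immunopanning and with magnetic beads. The other 6 libraries, Cre- control and AGR cKO control, come from pups that were not separated and that received 4-OHT on the same days. The genotype entries count up with the library number (Nr3c1, Nr3c2 and Nr3c3 in Cre- groups), and the titles were followed in their place. The labels do not say whether the libraries of a group come from separate animals, so p-values measure the spread between these libraries.

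The glucocorticoid receptor is a transcription factor that waits in the cytoplasm with chaperones until corticosterone binds it. It then enters the nucleus, binds short palindromic DNA elements and raises or lowers the transcription of nearby genes. Astrocytes express it at a high level, and genes that it induces in many tissues, such as Fkbp5, Tsc22d3 and Per1, also respond to corticosteroids in astrocytes.

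Total counts of the 6 libraries ran from 44317165 to 52130081, the 10 most abundant genes took 9.69% to 10.8% of them, and mitochondrial transcripts 3.42% to 4.26%. Levels of genes are given below as CPM, counts scaled by total and by TMM factor, in the order of library 1, 2 and 3. All 20 astrocyte markers were detected, and Aldh1l1 itself stood at 520.1, 544 and 525 CPM in Cre- ESD against 547, 667 and 459 CPM in AGR cKO ESD. A gene is called here at a Benjamini-Hochberg adjusted p under 0.05 from the edgeR quasi-likelihood test over all genes tested, and a log2 fold change is AGR cKO minus Cre-, with its standard error. By edgeR none of the 20 astrocyte markers was called (3 at p under 0.05), and their median log2 fold change was -0.07, but they did not all stand near it. The water channel Aqp4 was at 0.51 ± 0.15 (edgeR adjusted p = 0.154) and the connexin Gjb6 at -1.18 ± 0.32 (edgeR adjusted p = 0.112), each with no overlap between the groups, and DESeq2 called both (adjusted p = 0.0319 and 0.045). The value of Gjb6 without Cre- ESD 3 was -0.68. The smallest exact two-sided permutation p of 3 libraries against 3 is 0.1, and genes were therefore tested in 1 model across the table.

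Nr3c1 (gene ID 14815, mm10 chromosome 18, 39410545 to 39519421), the targeted gene, was at 209, 205 and 199 CPM in the Cre- ESD libraries and at 90.5, 66.6 and 95.9 CPM in AGR cKO ESD. Every AGR cKO library lay below every Cre- library. The fall was 2.42-fold between the group means, or -1.28 ± 0.12 on the log2 scale (edgeR adjusted p = 0.00459). It was the gene with the smallest p, and of the 56 called genes named by the rule it alone passed in all 12 fits that leave out 1 library (adjusted p = 0.00153 to 0.0392). It did not pass when only the 6 ESD libraries were fitted (adjusted p = 0.146). The gene count takes in all exons and the labels do not say which were deleted, and RNA made from the recombined gene is included. Among the other genes that handle the hormone and its receptor, none was called: the mineralocorticoid receptor Nr3c2 was at 0.42, the hormone-regenerating enzyme Hsd11b1 at -0.14 and the co-chaperone Fkbp4 at 0.27 on the log2 scale.

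Under ESD 200 genes were called, 1.04% of those tested: 112 were higher in AGR cKO (0.584%) and 88 lower (0.459%). Falls were larger than rises: 45 of the 88 lower genes and 9 of the 112 higher genes differed by 2-fold or more. Of the 200, 188 are protein-coding and 9 are long non-coding RNAs. All 200 separated the genotypes without overlap, as did 19.9% of all genes tested. Without a threshold on the adjusted p, 2989 genes had p under 0.05, 1518 of them higher and 1471 lower. In a principal component analysis of the 6 libraries the first component held 32.3% of the variance and put the Cre- libraries at -33.4, -17.5 and -42.6 and the AGR cKO libraries at 50.1, 24.8 and 18.6. The second held 25.2% and set Cre- ESD 3 (-40.1) and AGR cKO ESD 3 (-32.7) apart from Cre- ESD 1 and 2 and AGR cKO ESD 2 (24.9, 27.4 and 32.3), with AGR cKO ESD 1 between them (-11.7).

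How many genes were called depended on single libraries. Leaving out 1 ESD library at a time gave 2 calls without Cre- ESD 1, 144 without Cre- ESD 2 and 25 without Cre- ESD 3. It gave 14, 66 and 48 calls when AGR cKO ESD 1, 2 or 3 was left out. The control libraries share the estimate of spread, and without Cre- control 1, 2 or 3 the count was 280, 146 or 67, and without AGR cKO control 1, 2 or 3 it was 53, 13 or 56. With only the 6 ESD libraries 0 genes were called by edgeR (2747 at p under 0.05), and DESeq2 over all 12 libraries called 783. Each of the 200 genes kept its sign without any 1 library, and 198 with the 6 libraries alone. All 200 separated the genotypes without overlap, so leaving out 1 ESD library could hardly reverse a sign. The kept signs are therefore no separate support. Cre- ESD 3 was the highest of the 6 libraries in 67 of the 88 lower genes and the lowest in 68 of the 112 higher genes.

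**Figure D1:**
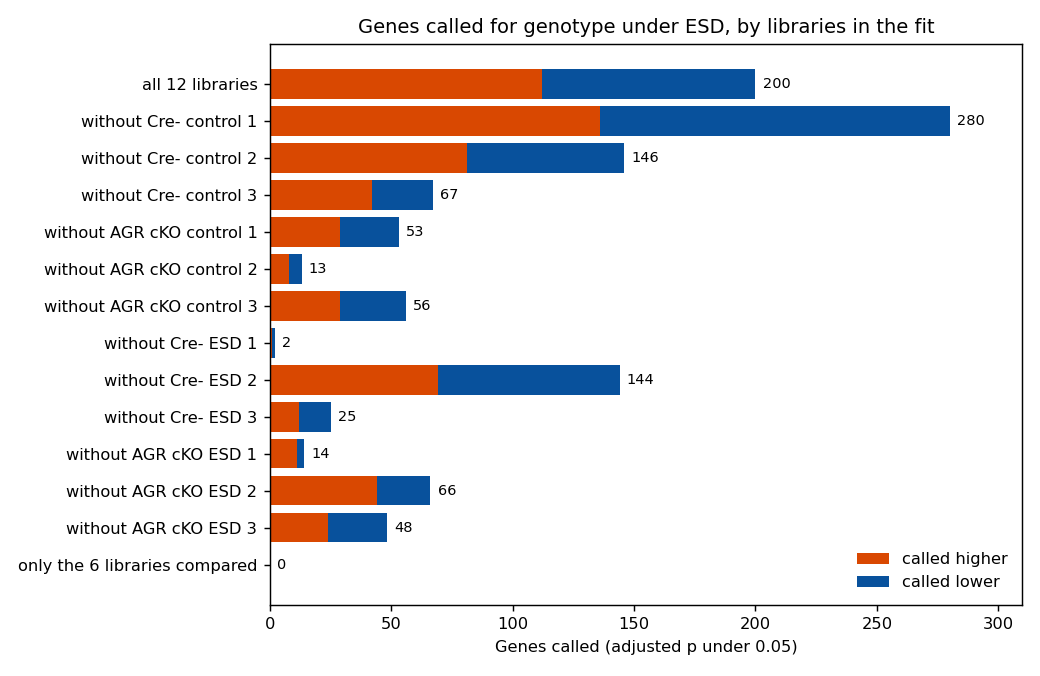
Number of genes called for genotype under ESD (x axis; adjusted p under 0.05), higher in AGR cKO in orange and lower in blue, by the libraries in the fit (y axis). The bar with all 12 libraries reaches 200, and bars without 1 library run from 2 to 280.

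Genes that glucocorticoids induce leaned lower in AGR cKO ESD. In a list of 33 such genes 4 were called, all lower, against 0.459% of all genes tested. Values were below 0 for 30 of the 33 and for 9516 of the 19163 genes tested, and the median log2 fold change was -0.85 against 0.002 over all genes tested. This and the other lists were chosen with earlier results of these data known. Their counts and medians are therefore descriptions and no independent support. Hif3a, an inhibitory member of the hypoxia-inducible factor family, was at 191, 125 and 362 CPM in Cre- ESD against 26.5, 31.0 and 50.2 CPM in AGR cKO ESD. It fell 6.29-fold (-2.65 ± 0.36, adjusted p = 0.0185). Zbtb16, a zinc finger transcription factor, was at 54.5, 48.7 and 104 CPM in the Cre- ESD libraries and at 7.25, 10.6 and 19.0 CPM in AGR cKO ESD. It fell 5.62-fold (-2.49 ± 0.35, adjusted p = 0.0185). Cre- ESD 3 held the most of both genes, and the lowest Cre- library was still above the highest AGR cKO library. Neither passed without Cre- ESD 1 or AGR cKO ESD 1 (highest adjusted p = 0.0687 for Hif3a and 0.0629 for Zbtb16), and both passed without Cre- ESD 3 (-2.14 and -2.07). Mfsd2a, a lysophospholipid transporter, was at 240.1, 201 and 474 CPM and at 88.0, 93.0 and 148 CPM. It fell 2.78-fold (-1.48 ± 0.30, adjusted p = 0.0438) and passed in 2 of the 12 fits without 1 library. Mertk, the other member called, is described with the engulfment genes.

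For 3 classical reporters of receptor activity every AGR cKO ESD library was also below every Cre- ESD library, but they did not pass the edgeR test. Fkbp5, a co-chaperone that dampens receptor signalling, was at 11.1, 9.93 and 103 CPM in Cre- ESD against 3.35, 5.23 and 6.62 CPM in AGR cKO ESD (-3.03 ± 0.75, adjusted p = 0.0903). The value of 103 CPM in Cre- ESD 3 is the only one of the 6 above 12 CPM, and without that library the log2 fold change was -1.05. Tsc22d3, a leucine zipper protein also called GILZ, was at 139.5, 152 and 367 CPM and at 85.7, 68.5 and 106 CPM (-1.34 ± 0.31, adjusted p = 0.0724). Sgk1, a hormone-regulated kinase, was at 95.2, 77.7 and 69.1 CPM and at 31.4, 47.3 and 53.1 CPM (-0.88 ± 0.29, adjusted p = 0.182). The metallothioneins Mt2 and Mt1, which bind zinc and copper, were at -0.92 ± 0.20 (edgeR adjusted p = 0.051) and -0.80 ± 0.24 (0.15). DESeq2 called 4 of these 5 genes, with adjusted p = 0.000612 for Tsc22d3, 0.0415 for Sgk1, 0.000416 for Mt2 and 0.0202 for Mt1, and gave no adjusted p for Fkbp5. Without Cre- ESD 3 the log2 fold change was -0.75 for Tsc22d3 and -0.50 for Mt1. With the microglial marker level as a covariate Sgk1 was at -0.10 (edgeR adjusted p = 0.82). Fkbp5, Tsc22d3, Mt2 and Mt1 were then at -3.34, -1.46, -1.10 and -0.99. Cre- ESD 3 was the highest of the 3 Cre- ESD libraries for 27 of the 33 genes. Without it the list median was -0.66 with 2 members called, and the list had 0 members called without Cre- ESD 1 or AGR cKO ESD 1.

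**Figure D2:**
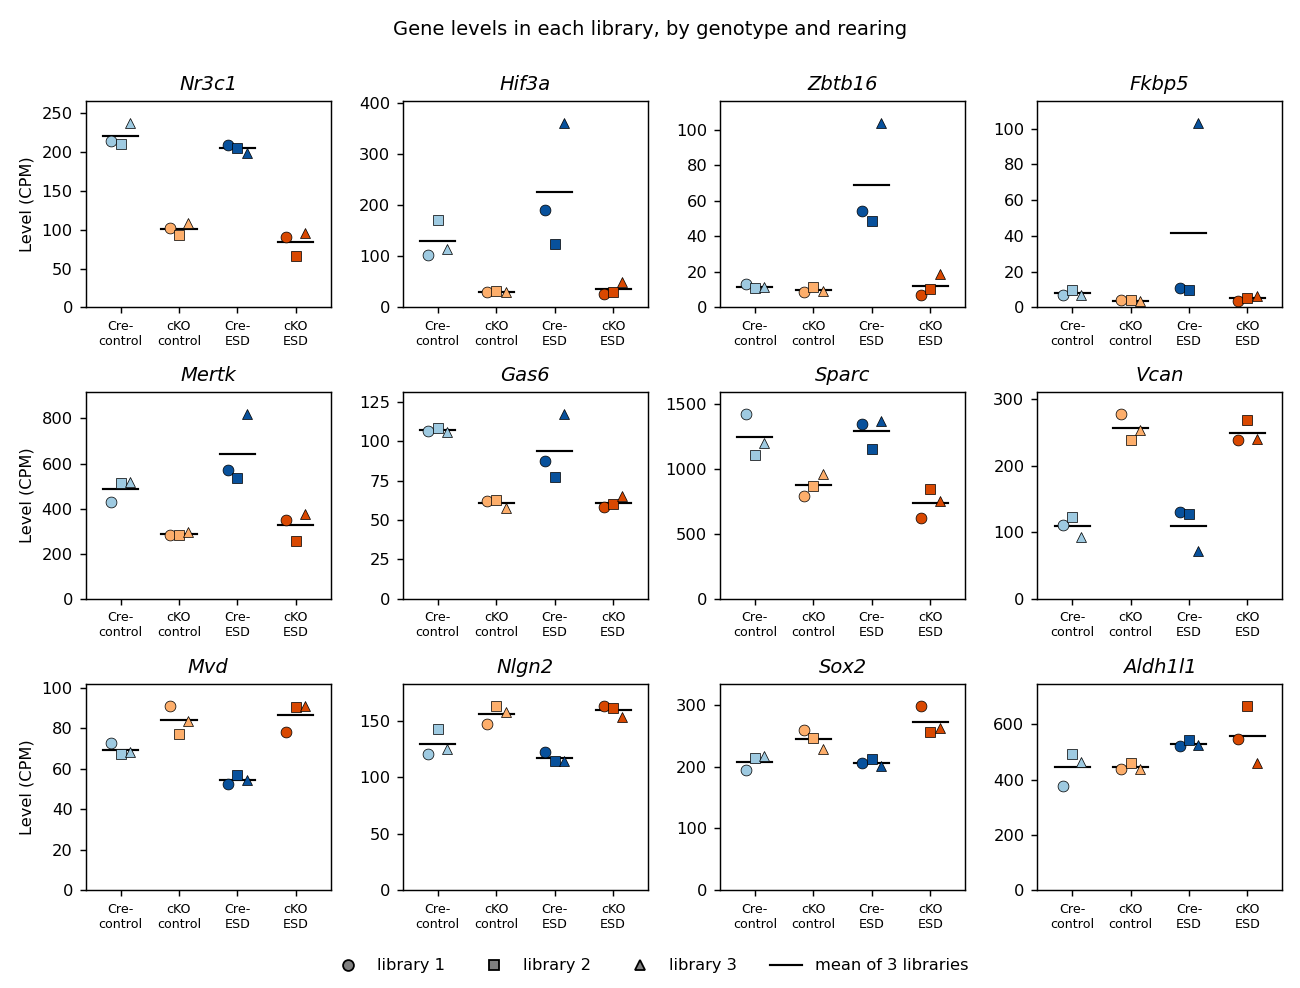
Level in CPM (y axis, from 0) of 12 genes in each library, by group (x axis), with libraries 1, 2 and 3 as circle, square and triangle and a line at the mean of the 3. For 10 of the 12 genes in the right-hand pair of groups the AGR cKO ESD libraries all lie on one side of the Cre- ESD libraries and the gene was called; Fkbp5 separates too but was not called, and Aldh1l1 overlaps.

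Promoter windows from RefSeq (GRCm38.p6, 250 bases before to 50 after the start site) were searched on both strands for a relaxed glucocorticoid response element, GNACANNNTGTNC. It lay in 0.435% of the 14022 tested genes with a window, in 4 of 27 glucocorticoid-induced genes with one (Fam107a, Map3k6, Mt1 and Sgk1), in 1 of 66 called-lower genes (Map7d2) and in 0 of 95 called-higher genes. The 3 windows that follow are those of genes named by the rule that hold a match, shown so that the element can be read in its place. Capitals mark the match. It begins 188 bases before the start site in Sgk1 (chr10:21993640-21993939, plus strand), 94 before it in Mt1 (chr8:94178839-94179138, plus strand) and at base 10 after it in Map7d2 (chrX:159458875-159459174, plus strand).
Sgk1: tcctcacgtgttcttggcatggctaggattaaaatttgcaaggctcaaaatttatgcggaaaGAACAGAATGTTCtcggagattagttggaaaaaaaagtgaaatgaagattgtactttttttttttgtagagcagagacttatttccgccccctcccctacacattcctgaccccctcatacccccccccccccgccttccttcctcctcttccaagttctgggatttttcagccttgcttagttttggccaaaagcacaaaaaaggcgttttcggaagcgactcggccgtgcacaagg
Mt1: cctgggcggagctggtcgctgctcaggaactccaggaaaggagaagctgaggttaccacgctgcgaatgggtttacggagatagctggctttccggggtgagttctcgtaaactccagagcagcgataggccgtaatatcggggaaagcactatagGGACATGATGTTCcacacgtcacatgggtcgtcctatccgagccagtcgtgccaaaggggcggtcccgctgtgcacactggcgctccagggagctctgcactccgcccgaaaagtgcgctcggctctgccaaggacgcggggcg
Map7d2: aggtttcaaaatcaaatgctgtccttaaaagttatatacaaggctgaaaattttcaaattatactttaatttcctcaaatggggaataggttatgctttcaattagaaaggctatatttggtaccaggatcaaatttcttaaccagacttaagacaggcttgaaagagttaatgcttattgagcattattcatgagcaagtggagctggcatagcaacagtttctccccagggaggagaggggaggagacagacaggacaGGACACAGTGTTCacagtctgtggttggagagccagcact
Of these, Map7d2, which encodes a microtubule-associated protein, was called: 15.8, 15.8 and 38.7 CPM in Cre- ESD against 5.48, 5.55 and 4.69 CPM in AGR cKO ESD (-2.16 ± 0.31, adjusted p = 0.0214). Hif3a, Mfsd2a and Mertk had no match, and Zbtb16 has no window in the table. AGAACA, a half-site of such elements, was searched in the same windows. It lay in 4 of the 27 glucocorticoid-induced genes (14.8%) and in 16.0% of the 14022 tested genes. Among called genes it lay in 14 of the 66 lower (21.2%) and 11 of the 95 higher (11.6%). Most receptor binding in the genome lies outside windows of this kind, and a missing match says only that these letters are not in the window.

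A receptor and a ligand of the same engulfment route fell together. Mertk is a receptor tyrosine kinase through which astrocytes take up apoptotic debris and synapses, and Gas6 is the ligand that bridges it to phosphatidylserine on the target. Mertk (chromosome 2, 128698915 to 128803162) was at 570.3, 534 and 818 CPM in the Cre- ESD libraries and at 349, 255 and 376 CPM in AGR cKO ESD. It fell 1.96-fold (-0.97 ± 0.17, adjusted p = 0.0326). Gas6 (chromosome 8, 13465374 to 13494535) was at 87.5, 77.3 and 117 CPM and at 58.1, 60.1 and 64.9 CPM. It fell 1.54-fold (-0.62 ± 0.12, adjusted p = 0.0431). The highest AGR cKO library stayed below the lowest Cre- library for both, and Cre- ESD 3 was the highest of the 6 for both. Without Cre- ESD 3 the values were -0.76 for Mertk (adjusted p = 0.0739) and -0.43 for Gas6 (0.0697). Mertk passed without Cre- control 1 or 2 or Cre- ESD 2 and missed in the other 9 fits without 1 library (adjusted p up to 0.108), and Gas6 passed in 2 of 12. Gas6 overlaps Tmem255b, which was also called lower (1.16 ± 0.318 CPM in Cre- ESD and 0.333 ± 0.142 CPM in AGR cKO ESD), and since use of strand in counting is not stated, reads of the overlap cannot be assigned.

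No other engulfment gene was called among the 26 tested, so 2 were called lower against 0.459% of all genes tested. The 26 had a median log2 fold change of -0.03. Axl, a kinase of the same family as Mertk, was at 447, 415 and 448 CPM in Cre- ESD against 469, 401 and 436 CPM in AGR cKO ESD (-0.01 ± 0.09). Megf10, a second astrocyte engulfment receptor, was at 194, 185 and 238 CPM and at 212, 151 and 227 CPM (-0.07 ± 0.16). The groups overlapped for both. Tyro3, the third kinase of the family, was at 0.66 and Pros1, the other ligand, at -0.37 (adjusted p = 0.165 and 0.183). Per length, in FPKM as deposited, Mertk stood at 114, 105 and 161 in Cre- ESD and at 67.0, 51.2 and 71.9 in AGR cKO ESD, while Axl stood at 81.3 to 89.1 and at 79.4 to 84.5. Mertk was thus above Axl in every Cre- ESD library and below it in every AGR cKO ESD library. Lysosome and phagosome genes, which digest what is taken up, had 0 called of 27 by edgeR (3 at p under 0.05) and a median of -0.04.

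Enzymes of cholesterol synthesis were higher in AGR cKO ESD. Of 21 genes of the pathway 9 rose and none fell, against 0.584% of all genes tested, 20 had values above 0 and the median log2 fold change was 0.38. Mvd, which makes isopentenyl diphosphate in the mevalonate part of the pathway, was at 52.7, 56.8 and 54.4 CPM in the Cre- ESD libraries and at 78.2, 90.6 and 91.2 CPM in AGR cKO ESD. It rose 1.59-fold (0.67 ± 0.08, adjusted p = 0.0156) and passed in 11 of the 12 fits without 1 library, missing without Cre- ESD 1 (0.0629). Fdps, which makes farnesyl diphosphate, was at 81.3, 81.8 and 83.7 CPM and at 111, 134 and 124 CPM (0.58 ± 0.08, adjusted p = 0.0212). Acat2, the thiolase that starts the pathway, was at 55.7, 54.9 and 55.9 CPM and at 76.0, 93.7 and 75.2 CPM (0.56 ± 0.09, adjusted p = 0.0265). Nsdhl, a sterol dehydrogenase of the later steps, stood at 91.2 ± 3.18 CPM in Cre- ESD and 119 ± 4.32 CPM in AGR cKO ESD (0.38 ± 0.06, adjusted p = 0.024). The groups did not overlap for these 4 genes, but this held for all 200 called genes and is no separate support.

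The remaining 5 called genes of the pathway, named after their values were seen, were Tm7sf2 (0.57), Lss (0.51), Dhcr7 (0.47), Cyp51 (0.45) and Sqle (0.31), enzymes that act from squalene onward. Hmgcs1, which makes HMG-CoA, was at 0.49 (adjusted p = 0.0942). The median stayed between 0.36 and 0.43 without any 1 library, but calls fell to 0 without Cre- ESD 1, 1 without Cre- ESD 3, 2 without AGR cKO ESD 1 or AGR cKO control 2 and 3 without AGR cKO ESD 3. They were 4 without AGR cKO ESD 2, Cre- control 3 or AGR cKO control 1 or 3, 5 without Cre- ESD 2, 6 without Cre- control 2 and 12 without Cre- control 1. The sum over the pathway was 4041 to 4438 CPM in Cre- ESD and 5428 to 5587 CPM in AGR cKO ESD. Acly, which supplies cytosolic acetyl-CoA for sterols and fatty acids, rose from 198 ± 4.43 to 267 ± 22.2 CPM (0.44 ± 0.07, adjusted p = 0.0316). It was the only one of 19 fatty acid synthesis genes to be called, against 0.584% called higher of all genes tested. Acly passed in 3 of the 12 fits without 1 library. Genes of sterol sensing and export had 0 called of 19 by edgeR (7 at p under 0.05).

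The same windows were searched for CCAAT, the box bound by the NF-Y factor that works beside sterol regulators. It lay in 15 of 16 cholesterol genes with a window and in 42.4% of the 14022 tested genes. The sterol regulatory element TCACNCCAC lay in 1 of the 16 (Hmgcs1) and in 1.45% of tested genes. The windows of Mvd (chr8:122443373-122443672, minus strand) and Nsdhl (chrX:72918271-72918570, plus strand), the called pathway genes named by the rule whose window holds the box, are shown with each box, on either strand, in capitals.
Mvd: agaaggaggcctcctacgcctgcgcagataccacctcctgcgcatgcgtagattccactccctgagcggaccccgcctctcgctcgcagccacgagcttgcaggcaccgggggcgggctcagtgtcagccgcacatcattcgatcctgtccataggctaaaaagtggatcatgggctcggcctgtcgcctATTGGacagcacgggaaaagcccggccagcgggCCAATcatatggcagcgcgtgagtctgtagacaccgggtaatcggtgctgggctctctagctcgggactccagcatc
Nsdhl: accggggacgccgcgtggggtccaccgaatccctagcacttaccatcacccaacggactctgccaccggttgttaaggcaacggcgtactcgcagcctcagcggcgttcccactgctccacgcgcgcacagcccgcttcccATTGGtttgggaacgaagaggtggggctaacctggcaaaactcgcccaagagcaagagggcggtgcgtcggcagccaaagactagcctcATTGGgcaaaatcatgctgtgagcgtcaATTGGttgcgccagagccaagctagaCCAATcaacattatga
Mvd has 2 boxes, which begin 60 and 27 bases before the start site, and Nsdhl has 4, of which 2 lie before it.

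**Figure D3:**
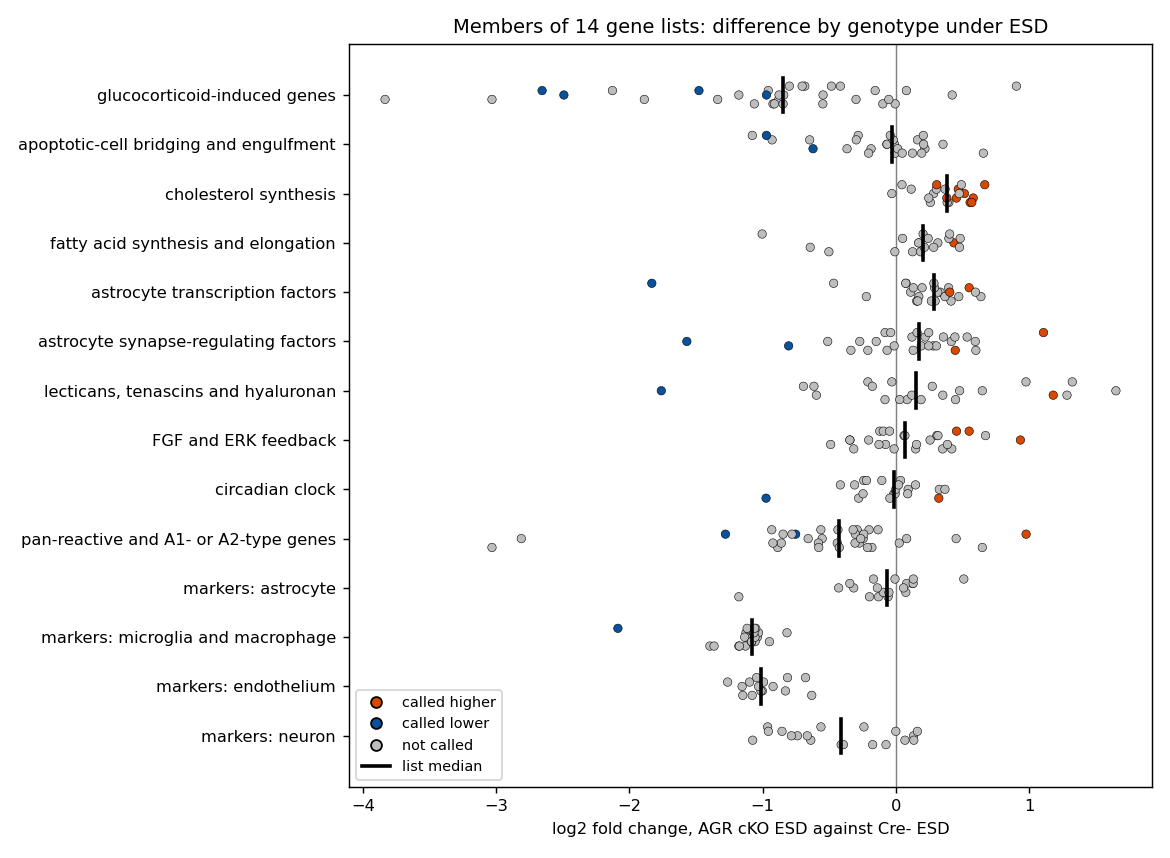
Log2 fold change, AGR cKO ESD against Cre- ESD (x axis), of each member of 14 gene lists (y axis), called higher in orange, called lower in blue, not called in grey, with a bar at the list median. Cholesterol synthesis lies to the right (median 0.38, 9 called), glucocorticoid-induced genes to the left (median -0.85, 4 called), and the markers of microglia and endothelium lie near -1 with 1 and 0 called.

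Genes of the extracellular matrix and of synapse contact went in both directions. Vcan (chromosome 13, 89655309 to 89743027), which encodes the chondroitin sulphate proteoglycan versican, was at 131, 127 and 71.9 CPM in Cre- ESD against 238, 269.6 and 240.4 CPM in AGR cKO ESD. It rose 2.27-fold (1.18 ± 0.19, adjusted p = 0.0277), and without Cre- ESD 3, its lowest library, still passed (0.95, adjusted p = 0.0258). It did not pass without Cre- ESD 1, AGR cKO control 2 or any 1 of the AGR cKO ESD libraries (up to 0.0807). Adamts20, a protease of the family that cleaves versican, was at 51.2, 46.2 and 109 CPM and at 16.2, 16.5 and 28.2 CPM. It fell 3.39-fold (-1.76 ± 0.32, adjusted p = 0.0353). Without Cre- ESD 3 Adamts20 was at -1.27 (adjusted p = 0.0739), and it passed in 4 of the 12 fits without 1 library. No other of the 22 genes for lecticans, tenascins, hyaluronan and their enzymes was called. Of all genes tested 0.584% were called higher and 0.459% lower. The hyaluronan synthase Has2 was at 1.65 and the protease Adamts5 at 1.32 (adjusted p = 0.0562 and 0.0587).

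Among 28 factors by which astrocytes act on synapses 2 rose and 2 fell, against 0.584% called higher and 0.459% called lower of all genes tested. Sparc, a secreted protein that opposes the synapse-forming action of Sparcl1, was at 1340, 1153 and 1367 CPM in the Cre- ESD libraries and at 618, 844 and 748 CPM in AGR cKO ESD. It fell 1.75-fold (-0.80 ± 0.14, adjusted p = 0.0307), while Sparcl1 was at -0.15. Sparc passed in 7 of the 12 fits without 1 library. With the microglial marker level as a covariate it was at -0.55 (edgeR adjusted p = 0.194). Lgi1, a secreted ligand that links Adam22 and Adam23 across the synapse, was at 11.5, 13.7 and 24.9 CPM and at 3.83, 5.85 and 7.19 CPM (-1.57 ± 0.30, adjusted p = 0.0392). Nlgn2, a neuroligin that binds neurexins, was at 122, 114 and 115 CPM and at 163, 161 and 154 CPM. It rose 1.36-fold (0.45 ± 0.08, adjusted p = 0.031), with replicates closer together than the gap between the groups. C1ql3, a C1q-like synaptic organiser, rose from 3.40 ± 0.908 to 7.34 ± 0.410 CPM (1.11 ± 0.20, adjusted p = 0.0353). It overlaps Pter, which is not called, so part of its reads may not be its own. The thrombospondins Thbs1 to Thbs4 and the glypicans Gpc4, Gpc5 and Gpc6 were not called. Of adhesion genes, Cntn1, a contactin, fell from 33.7 ± 4.80 to 11.7 ± 2.17 CPM (-1.52 ± 0.24, adjusted p = 0.024), and Cdh19, a cadherin, from 57.2 ± 31.7 to 10.9 ± 4.27 CPM (-2.40 ± 0.41, 0.0316). Without Cre- ESD 3 Cdh19 was at -1.84 (adjusted p = 0.0697), and it passed in 5 of the 12 fits without 1 library. Cntnap2, a neurexin-like protein, rose from 19.3 ± 4.79 to 38.2 ± 7.10 CPM (0.99 ± 0.19, 0.0424), Pcdh8, a protocadherin, from 20.1 ± 5.19 to 40.5 ± 3.90 CPM (1.01 ± 0.17, 0.0307) and Cdh13 from 30.6 ± 0.379 to 47.3 ± 4.69 CPM (0.63 ± 0.12, 0.038). Of the 12 fits without 1 library Lgi1 and Cntnap2 passed in 2, C1ql3 and Cdh13 in 3, Nlgn2 in 4, Pcdh8 in 5 and Cntn1 in 7.

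Transcription factors of the astrocyte and radial glia lineage leaned higher. Of 25 tested 22 had values above 0, as did 9647 of the 19163 genes tested, and the median was 0.29. In the list 2 were called higher and 1 lower, against 0.584% and 0.459% of all genes tested. Sox2, a factor of neural progenitors that astrocytes keep, was at 205, 212 and 200.4 CPM in Cre- ESD against 299, 257 and 262 CPM in AGR cKO ESD (0.40 ± 0.08, adjusted p = 0.0431). Etv4, a target of FGF signalling through ERK, was at 102, 108 and 93.3 CPM and at 147, 169 and 127 CPM (0.55 ± 0.10, adjusted p = 0.0353). Mycl, a member of the Myc family, fell from 38.0 ± 21.8 to 10.7 ± 2.21 CPM (-1.83 ± 0.34, adjusted p = 0.0353). Without Cre- ESD 3 Mycl was at -1.25 (adjusted p = 0.0601), and it passed in 3 of the 12 fits without 1 library. Fgfr2, an FGF receptor of astrocytes, stood at 239 ± 7.55 CPM and at 328 ± 24.3 CPM and rose 1.37-fold (0.45 ± 0.08, adjusted p = 0.0326). Its relative Fgfr3 was at -0.32 and was not called. In unseparated pups the same list of factors had a median of 0.06, with Sox2 at 0.23 and Etv4 at 0.06. No factor was called without Cre- control 3, any 1 AGR cKO control library, Cre- ESD 1, Cre- ESD 3 or AGR cKO ESD 1 or 2. Of the 12 fits without 1 library Sox2 passed in 1, Fgfr2 in 3 and Etv4 in 4.

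Further called genes belonged to other groups. Counts of called members below stand against 0.584% called higher and 0.459% called lower of all genes tested. Them4, a thioesterase of mitochondrial fatty acid metabolism, was at 22.4, 25.8 and 15.2 CPM in the Cre- ESD libraries and at 44.9, 45.7 and 50.3 CPM in AGR cKO ESD, with no overlap (1.15 ± 0.16, adjusted p = 0.0185). Il17d, a cytokine on the FGF and ERK list, and Vipr2, a receptor of vasoactive intestinal peptide, rose (0.93 ± 0.15 and 0.89 ± 0.14, adjusted p = 0.0284 and 0.024), and Atf3, a stress-induced transcription factor, fell (-0.66 ± 0.13, 0.0431). Wnt7a, a Wnt ligand, rose from 47.7 ± 14.9 to 92.1 ± 5.52 CPM (0.95 ± 0.18, adjusted p = 0.0369) and Fzd10, a Wnt receptor, from 37.1 ± 4.01 to 61.4 ± 10.9 CPM (0.73 ± 0.15, 0.0447), 2 of 27 Wnt genes tested. Vegfa, the vascular growth factor, rose from 619 ± 44.2 to 832 ± 49.1 CPM (0.43 ± 0.09, 0.0459); of the 19 genes of the hypoxia pathway it and Hif3a were called. Of 20 clock genes Npas2, a partner of Arntl, fell from 56.9 ± 9.99 to 29.0 ± 5.62 CPM (-0.97 ± 0.15, 0.024) and Arntl rose from 36.3 ± 0.657 to 45.4 ± 1.66 CPM (0.32 ± 0.06, 0.0431). Per1, a clock gene that glucocorticoids induce, was at -0.42 (0.306). Gjb2, a connexin of the astrocyte gap junction, fell from 41.8 ± 5.04 to 29.6 ± 1.13 CPM (-0.50 ± 0.10, 0.0459), and its partner Gjb6 is described with the astrocyte markers. Asic2, an acid-sensing channel, fell from 26.2 ± 17.0 to 5.73 ± 1.09 CPM (-2.19 ± 0.41, 0.0378), and Kcnh5, a potassium channel, rose from 5.28 ± 0.681 to 10.2 ± 1.96 CPM (0.96 ± 0.17, 0.0316). For Asic2 the highest library was Cre- ESD 3, and without it the log2 fold change was -1.52 (adjusted p = 0.0739). Asic2 passed in 3 of the 12 fits without 1 library, and it overlaps 2 non-coding genes. Of 35 reactive-astrocyte genes S100a10 rose (0.98 ± 0.17, adjusted p = 0.0316), Cd109 and Cxcl10 fell (-1.28 ± 0.21 and -0.75 ± 0.14, adjusted p = 0.0284 and 0.0326), and Gfap was at 0.08. The list leaned lower: 30 of the 35 had values below 0, as did 9516 of the 19163 genes tested. Its median was -0.42 (-0.23 in control), with 2 higher and 8 lower at an edgeR p under 0.05. Cxcl10 overlaps Art3, so part of its reads may not be its own. Of the 12 fits without 1 library Vegfa, Arntl and Gjb2 passed in 1, Atf3 and Fzd10 in 2 and Cxcl10 in 3. Wnt7a and S100a10 passed in 4, Kcnh5 in 5, Cd109 and Il17d in 6, Vipr2 in 7, Npas2 in 8 and Them4 in 9. Cell cycle, interferon-stimulated, oxidative phosphorylation and glutamate and GABA genes had no member called by edgeR, with 0, 3, 0 and 3 at p under 0.05. Of 22 interferon-stimulated genes 19 had values below 0, with a median of -0.27 (0.01 in control). Their summed levels of 332, 363 and 342 CPM in Cre- ESD and 229, 370 and 311 CPM in AGR cKO ESD overlapped. The cell cycle median was 0.29, and -0.13 without AGR cKO ESD 1, which held 457 CPM of these genes against 221 to 301 CPM in the other 5 libraries. Notch, hedgehog and BMP genes, genes of glucose and lactate metabolism and genes of glutathione and metal defence also had 0 called by edgeR (6 at p under 0.05 in each), with medians of -0.04, 0.02 and -0.07.

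The control pair, made of other libraries, gave the same directions for most of these genes. Of the 200 genes called under ESD 191 had the same sign between AGR cKO control and Cre- control, 105 of 112 higher and 86 of 88 lower, against 62.8% of all genes tested. In 150 the control groups also did not overlap, in the same direction. Of all genes tested 16.9% did not overlap in control, in either direction. The unadjusted edgeR p was under 0.05 with the same sign for 133. The 200 were called with a spread estimated from the control libraries too, so genes with a small spread in control were called more easily. The 150 and the 133 are therefore descriptions and no independent support. In control 3 of the 200 were called by edgeR: Nr3c1, Zfp868 and LOC115486910. Zfp868, a zinc finger gene (chromosome 8, 69610654 to 69625557), was at 10.2, 10.8 and 12.9 CPM in Cre- ESD against 21.5, 22.2 and 23.9 CPM in AGR cKO ESD, and the difference was 1.00 ± 0.12 under ESD and 0.94 ± 0.12 in control. The median size of the difference among the 200 was 0.67 under ESD, where they were chosen, and 0.39 in control. Glucocorticoid-induced genes had a control median of -0.68, cholesterol synthesis genes 0.24 and microglial markers -1.13.

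**Figure D4:**
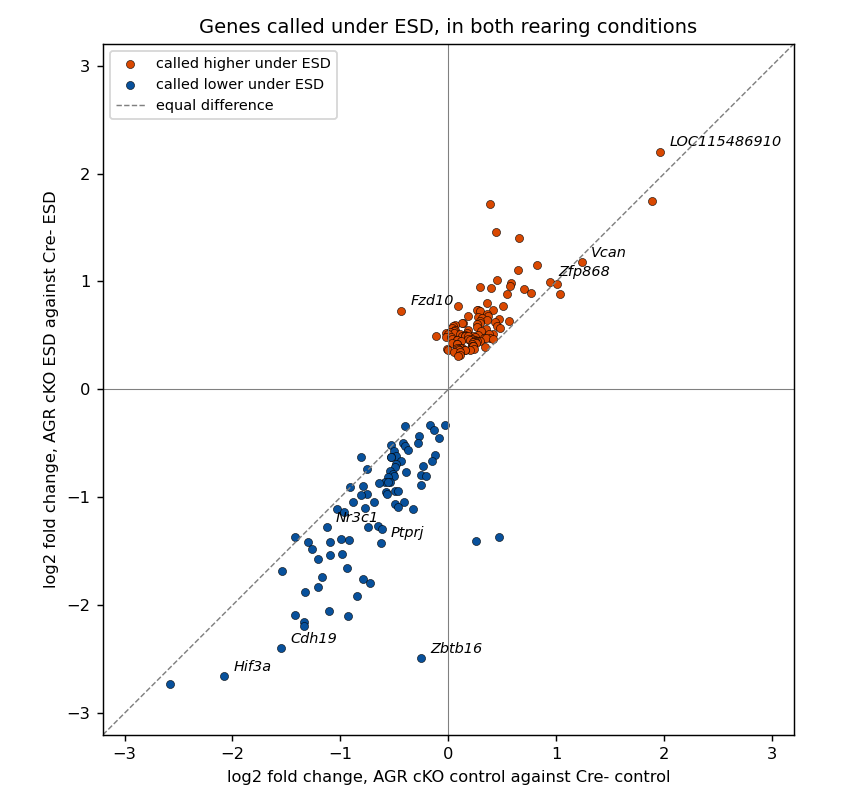
Log2 fold change by genotype in unseparated pups (x axis) and under ESD (y axis) for 197 of the 200 genes called under ESD; the other 3 lie outside the axes. Most points have the same sign on both axes, Zbtb16 lies near 0 on the x axis and low on the y axis, and Fzd10 lies left of 0 and above it.

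Whether the difference by genotype itself differed between rearing conditions was tested as an interaction. No gene was called by edgeR, 860 genes had p under 0.05, and DESeq2 called 9. Among the 200 genes, 79 had an interaction p under 0.05. They were chosen by their difference under ESD, which is a term of the interaction. This share therefore cannot show that the difference depends on rearing. Zbtb16 was at 13.0, 10.8 and 11.3 CPM in Cre- control and at 8.88, 11.3 and 9.21 CPM in AGR cKO control, overlapping groups, against the values under ESD given above (edgeR interaction adjusted p = 0.98). Ptprj, a receptor tyrosine phosphatase, was at 82.2, 60.6 and 107 CPM in the Cre- ESD libraries and at 32.0, 32.0 and 29.5 CPM in AGR cKO ESD (-1.42 ± 0.19, adjusted p = 0.0185), and at -0.62 in control (edgeR interaction adjusted p = 0.999). Ngef, a guanine nucleotide exchange factor, was at 189, 182 and 188 CPM and at 252, 267 and 277 CPM under ESD (0.51 ± 0.07, adjusted p = 0.0164) and at 0.11 in control (edgeR interaction adjusted p = 0.999). Fzd10 had the smallest interaction p of all genes tested. It was at 51.7, 57.9 and 72.5 CPM in Cre- control and at 47.3, 44.7 and 42.6 CPM in AGR cKO control, the reverse of its order under ESD (edgeR interaction adjusted p = 0.904). Sez6l2 and Slc17a7, genes of neurons, were below 0 under ESD and above 0 in control (edgeR interaction adjusted p = 0.904 for each). Mertk, Gas6 and Hif3a had an edgeR interaction adjusted p = 0.999 each, and the effect under ESD minus that in control was -0.22 ± 0.24 for Mertk. 

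Markers of other cell types moved with genotype in the same libraries. All 21 microglia and macrophage markers had values below 0 under ESD, with a median of -1.08, and 14 of the 21 did not overlap between the groups, against 19.9% of all genes tested. Their summed level was 1057, 743 and 647 CPM in Cre- ESD and 213, 362 and 557 CPM in AGR cKO ESD, so the highest AGR cKO library was close below the lowest Cre- library. Nrros, a microglial protein that presents latent TGF-beta, was the only one called (1.04% of all genes tested were), at 17.9, 14.2 and 44.0 CPM and at 5.40, 3.96 and 8.58 CPM (-2.09 ± 0.43, adjusted p = 0.046). Its order among the Cre- libraries is not that of the list, whose highest library was Cre- ESD 1, and without Cre- ESD 3 Nrros was at -1.43 (adjusted p = 0.11). All 15 endothelial markers were below 0, with a median of -1.01 and 0 called by edgeR (1 at p under 0.05), and summed levels of 1439, 1167 and 608 CPM against 336, 639 and 647 CPM, which overlap. The 5 erythroid genes summed to 224, 153 and 132 CPM and to 39.6, 25.4 and 107 CPM. The 19 neuron markers summed to 697 to 717 CPM and to 680 to 751 CPM, with a median of -0.41. Markers of mural cells, oligodendrocytes, their precursors and ependyma had medians of -0.45, -0.12, -0.47 and -0.66, with 0 called in each by edgeR (4, 1, 6 and 4 at p under 0.05). Not all of these directions held in control. There the neuron median was 0.34, with 15 of 19 above 0. The mural, oligodendrocyte, precursor and ependymal medians in control were 0.09, 0.13, 0.03 and -0.65, and the endothelial and erythroid ones -0.98 and -0.54. Every marker of these lists that was tested had a mean above 0 CPM in both groups.

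Mertk is also expressed by microglia and macrophages, and in whole preparations fewer cells of a type and less RNA per cell cannot be told apart. With the microglial marker level as a covariate 0 genes were called by edgeR (1958 at p under 0.05); Nr3c1 was then at -1.23 (adjusted p = 0.0709), Mertk at -1.08 (0.129) and the medians of the glucocorticoid-induced and cholesterol lists at -0.655 and 0.375. With the endothelial level as covariate 172 genes were called, 47 higher and 125 lower, 97 of them among the 200, and Mertk was at -1.11 (0.0139). With the neuron level 0 were called by edgeR (1766 at p under 0.05). The part of these cell types in the genotype difference was not tested, since the microglial level itself differs between the groups.

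**Figure D5:**
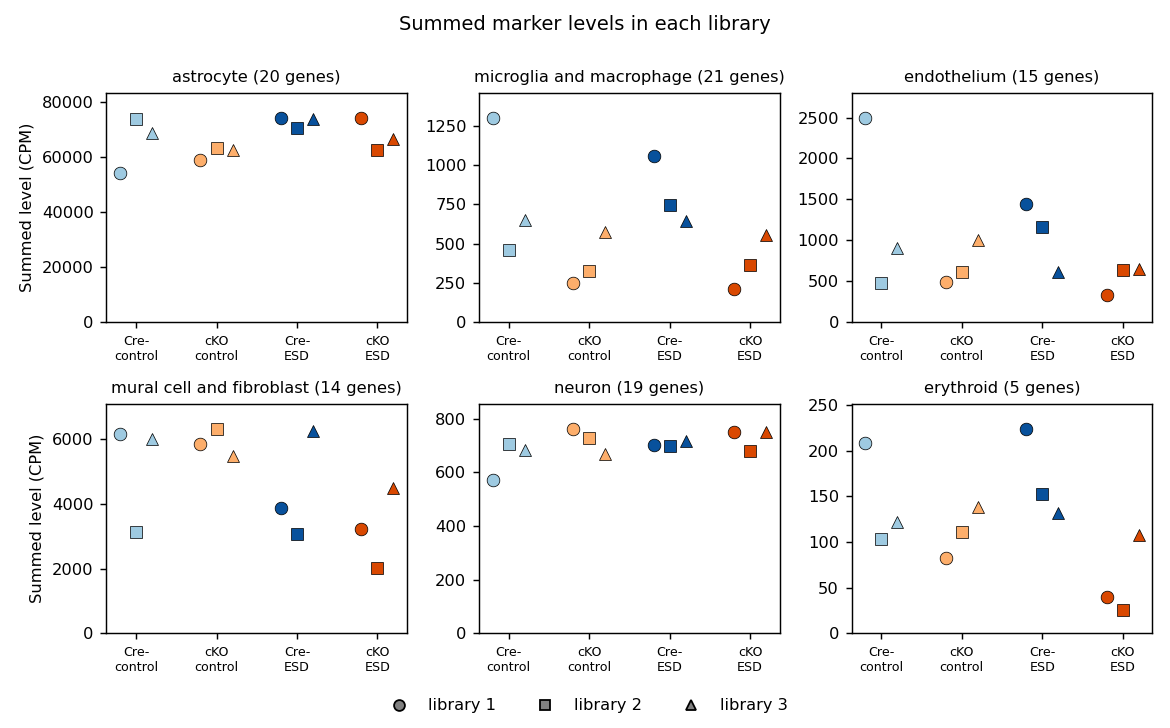
Summed level in CPM (y axis, from 0) of 6 marker lists in each library, by group (x axis), with libraries 1, 2 and 3 as circle, square and triangle. The microglial sums of AGR cKO ESD (213 to 557 CPM) lie below those of Cre- ESD (647 to 1057 CPM), the endothelial sums overlap, and the astrocyte sums overlap.

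Some called genes lie beside each other. Of the 200, 12 neighbouring pairs are less than 100 kb apart, 10 of them with the same direction and 4 overlapping. Mfsd2a and Mycl on chromosome 4 both fell and lie 34394 bases apart. The pairs Gas6 and Tmem255b, Farp1 and B930095G15Rik, Lrrc75a and Mmgt2, and Armc6 and Sugp2, named after their values were seen, overlap in the annotation, so each pair may be 1 signal counted under 2 names. By chromosome the share of tested genes called ran from 0.427% on chromosome 17 to 1.52% on chromosome 14, apart from 0 of 29 mitochondrial genes.

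Of 62862 transcripts tested 5 were called (0.00795%), of Nrf1, Prrg3, Gprc5c, Tob1 and Uhrf1bp1l, and none of these genes was called as a whole; for 4 of the 5 the transcript was listed at 0 in every library of one group. For Vcan all 6 transcripts tested were above 0, among them NM_019389 at 1.49 on the log2 scale. For Mertk the form NM_008587 held most of the signal, 513, 430 and 696 CPM in Cre- ESD and 297, 210 and 277 CPM in AGR cKO ESD. None of these passed over all transcripts (adjusted p = 0.615 for NM_019389 and 0.42 for NM_008587).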

How the data were processed

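Poly(A) RNA of purified cortical astrocytes was sequenced as 12 libraries, 3 in each of 4 groups. The authors deposited counts, FPKM and TPM per gene and per transcript, per the file headers; HISAT2 2.1.0, StringTie 1.3.4b and the mm10 build are among the tools that the submitters' processing notes name, without their order. How counts were derived and whether strand was used are not given in the sources used here. The column marks cre_M and cre_P were read as Cre- and AGR cKO. Deposited counts were tested with edgeR 4.0.16 (TMM scaling, filterByExpr, quasi-likelihood F test over all 12 libraries, 8 residual degrees of freedom) and adjusted by Benjamini-Hochberg over the 19163 genes tested. Errors of log2 fold changes are the fold change over the square root of F, and errors of means are SD with n = 3. The deposited FPKM were used for levels per length and the deposited TPM for an alternative with limma 3.58.1 on log2(TPM + 1). DESeq2 1.42.0 was a further alternative.

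Genes were named by rule: among called genes with a mean of 5 CPM or more, no overlap between groups and an established gene symbol, the 15 highest and 15 lowest log2 fold changes and the 10 smallest p; in each list up to 4 called members, or if none was called the leading 2 by p; the 5 smallest interaction p; and 11 genes of the receptor, its targets and engulfment. Other genes were named after their values were seen. Some genes that the rule names are not reported here. Members and lists were chosen with earlier results of these data known. Depth was 44317165 to 52130081 counts a library in the 6 libraries compared.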

Additional observations from a re-analysis of the deposited data

How the results depend on the processing

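Genotype called 200 genes under ESD with all libraries in the edgeR fit, and 783 with DESeq2, 100 with no filter on low counts, 0 with only the 6 libraries compared, 453 at an adjusted p under 0.1 and 1 under 0.01. With the microglial or the neuron marker level as covariate 0 were called. Without 1 library at a time the count ran from 2 to 280. In control, where 3 genes were called, the count was 265 with DESeq2, 31 with only the 6 libraries compared, 0 with the microglial or the neuron covariate, 8 with the endothelial one, 8 at an adjusted p under 0.1, 0 under 0.01, and 0 to 63 without 1 library. The interaction had 0 calls by edgeR (860 at p under 0.05) and 9 by DESeq2. Transcripts had 5 calls, 1102 with DESeq2, 0 with only the 6 libraries compared, 1 at an adjusted p under 0.01 and 1 to 10 without 1 library.

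Mertk no longer passed with only the 6 libraries (-0.97), with the microglial (-1.08) or the neuron covariate (-1.01), and ran from -1.09 to -0.76 without 1 library. Nr3c1 no longer passed with only the 6 libraries (-1.28), the microglial (-1.23) or the neuron covariate (-1.22), and ran from -1.38 to -1.13 without 1 library. The cause of these changes was not tested. None of the 56 called genes named by the rule changed sign in any setting. Their lack of overlap between the groups largely fixed this for fits without 1 library. Of the named genes that were not called, 5 changed sign. Aldh1l1 (0.0744) turned to -0.10, -0.0191 and -0.0521 with the microglial, endothelial and neuron covariates, and without 1 library ran from -0.0734 to 0.20. Axl (-0.0055) turned to 0.0317 with the neuron covariate and without 1 library ran from -0.0588 to 0.0504, and Megf10 (-0.0663) ran from -0.18 to 0.0939. With the microglial covariate the endothelial genes Esam (-0.83) and Ocln (-1.08) turned to 0.15 and 0.0883. Over all lists and alternatives 905 medians stayed within the spread between libraries and 57 moved by more.

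The labels give all groups the same replicate numbers. Same-numbered libraries had correlations of deviations of -0.0627, 0.111 and 0.183 under ESD and of -0.104, 0.0129 and 0.0494 in control. Not every library correlated best with its own number, but Cre- ESD 3 and AGR cKO ESD 3 did. With so few libraries these values do not settle whether the numbers pair them. With the replicate block 244 genes were called over all 12 libraries, 166 of them among the 200, and 27 over the 6 libraries, where Mertk was at -0.97 (adjusted p = 0.0524). With the block 0 genes were called in control over the 6 control libraries, and 0 transcripts under ESD over all 12 libraries or the 6.

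Each group holds 3 libraries, and 1 library can decide whether a gene is called. Genes that overlap another gene, and genes near 0 CPM in a group, are uncertain.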
